A study of Saccharomyces cerevisiae with 6 samples.

Results

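The nuclear genes of the yeast respiratory chain and of ATP synthase were followed in Saccharomyces cerevisiae cultures with and without added ethanol. The set was fixed by gene symbol: the nuclear-encoded subunits of complexes III and IV and of ATP synthase, both cytochromes c, the NADH and lactate dehydrogenases that feed the chain, and the HAP transcription factors. All 44 genes were found on the array, each with 1 probe and each under its current symbol, among 5650 named genes and 6345 features in all. The rule used no measured value, but the members were chosen with earlier results of these data known.

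The 6 arrays compared 3 cultures grown with 6.5% (v/v) ethanol and 3 cultures grown with 0% ethanol, 1 array per culture. Both groups were strain W303-1A, a haploid MATa laboratory strain with the marker alleles ade2-1, can1-100, trp1-1, ura 3-1, his3-11, 15 and leu2-3, 122. They were started from the same unstressed parent culture and grown in YEPD, a rich medium with 20 g/l of glucose and of bactopeptone and 10 g/l of yeast extract, at 30 °C with shaking at 110 rpm. The time in ethanol is not given in the sources used here. The parent culture was in late exponential growth. On each array the total RNA of 1 culture was hybridised with a common pool made from the RNA of 3 cultures without ethanol, and in each group the dyes of the culture 1 array were swapped.

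Yeast makes ATP in mitochondria by passing electrons from NADH, succinate and lactate through a chain of membrane complexes to oxygen, and ATP synthase uses the proton gradient that this builds up. S. cerevisiae has no proton-pumping complex I and uses single-protein NADH dehydrogenases in its place. On abundant glucose it ferments and represses many respiratory genes. HAP1 responds to heme, and the HAP2/3/4/5 complex, whose limiting subunit is HAP4, activates these genes when respiration is called for.

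Each value given is the log2 of a culture's signal over that of the pool, and a change is the fitted 6.5% minus 0% difference with its SE (limma with a term for dye orientation, Benjamini-Hochberg adjustment over all 6345 features, n = 3 arrays per group). A gene was called at an adjusted p under 0.05. Red over green was taken as the direction of the deposited ratios, which no source used here states but is likely. The usual order of the dyes and high ratios of the stress genes HSP12 and HSP26 in ethanol are the basis for it (HSP12 at the table's limit of 6.64 on every 6.5% array, HSP26 with a change of 5.33), and with green over red every direction would be opposite. A ratio carries no level, and a change in the share of cells that use a gene cannot be told apart from a change in RNA per cell.

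The arrays of culture 1 stood apart from the others. With the swapped ratios turned, 6.5% culture 1 had a correlation over all features of r = −0.06 and −0.10 with 6.5% cultures 2 and 3, against 0.85 between those, and one of 0.43 with 0% culture 1, which had the same dye orientation. The array of 0% culture 1 correlated at −0.39 and −0.45 with those of 0% cultures 2 and 3, against 0.67 between those. In the limma fit the dye orientation term, which also takes up any difference of culture 1, was called for 2155 features, against 1150 for ethanol. For the called members, the isoform pairs and several other members, the difference is therefore also given within the swapped arrays (culture 1 against culture 1) and within the other arrays (cultures 2 and 3). The difference had the same sign in both orientations for 35 of the 44 members (79.5%), against 66.6% of all features. Removing a smooth trend of each array along the probe number (lowess) was tried as an alternative.

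Of the 44 members 5 rose and 1 fell with ethanol, or 13.6%, against 18.1% of all features. The 5 that rose were 11.4% of the members, against 7.69% of all features, and the 1 that fell was 2.27%, against 10.4%. CYC7, COX13, COX9, ATP17 and CYB2 rose and NDE1 fell. The median change of the members was 0.19, beside 0.04 over all features, and 28 members lay above 0 (63.6%, against 52.0% of all features) and 16 below. Of the 38 that were not called, 14 had an unadjusted p under 0.05, with 7 above 0 and 7 below, and adjusted p-values from 0.0515 to 0.140. The share of all features at an unadjusted p under 0.05 was not taken. Such counts, here and for the lists below, therefore have no background beside them and do not show an excess. The groups did not overlap for 11 members that were higher in ethanol (25% of members, against 11.3% of all features) and for 6 that were lower (13.6%, against 14.0%). Within both dye orientations the 6.5% arrays lay above the 0% arrays for 16 members (36.4%, against 23.8% of all features) and below them for 10 (22.7%, against 24.4%).

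With culture number as a block in place of the dye term, 3 members rose and 1 fell. With the probe-number trend removed 3 rose, against 5.91% of all features, and 1 fell, against 7.27%, or 4 of 44 against 13.2% in either direction. Removing it turned the sign of 7 members whose changes lay between −0.38 and 0.17: COR1, ATP1, ATP15, ATP16, ATP4, ATP20 and DLD1.

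**Figure D1:**
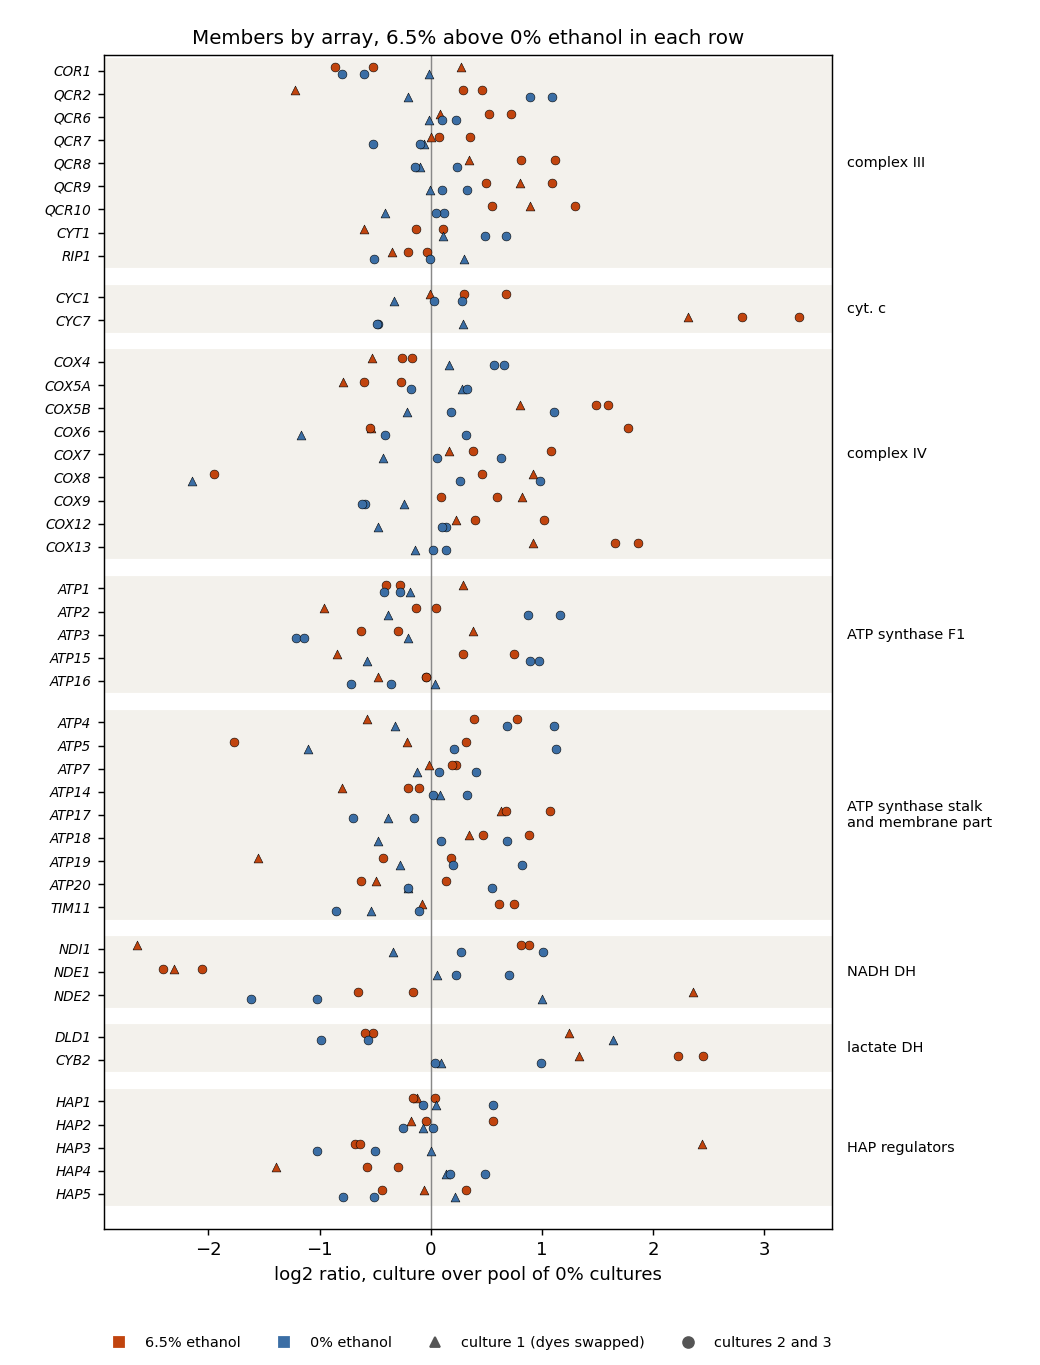
Log2 ratio of culture over pool (x axis) for the 44 members by role, with a point for each array, 6.5% ethanol (orange) above 0% ethanol (blue) in each row and triangles for the dye-swapped culture 1. CYC7 at 2.31 to 3.31 and NDE1 at −2.41 to −2.06 on the 6.5% arrays lie farthest from their 0% arrays.

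The dehydrogenases that hand electrons from cytosolic or matrix NADH to ubiquinone gave 1 gene that fell, NDE1, and 2 that were not called. The 1 that fell was 33.3% of this list, against 10.4% of all features. NDE1, the main external NADH dehydrogenase, which oxidises cytosolic NADH on the outer face of the inner mitochondrial membrane, read −2.31, −2.41 and −2.06 on the arrays of 6.5% cultures 1, 2 and 3, against 0.06, 0.70 and 0.23 in 0% cultures 1, 2 and 3. The 6.5% arrays lay close together and far below all the 0% arrays. NDE1 fell by 2.59 ± 0.27 (a 6.01-fold decrease, 95% interval −3.23 to −1.94, adjusted p = 0.00633), with −2.37 within the swapped and −2.70 within the other arrays. It ranked 31st from the lowest change of all 6345 features. Its call was lost without the array of 6.5% culture 2 (−2.46, adjusted p = 0.0591) and held in the other 5 fits without 1 array, where adjusted p lay at 0.048 or below.

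NDE2, the second external NADH dehydrogenase, read 2.36, −0.16 and −0.65 in 6.5% cultures 1, 2 and 3 and 1.00, −1.02 and −1.62 in 0% cultures 1, 2 and 3. Each group spread widely, with the swapped array high in both, but within each orientation the 6.5% arrays were above the 0% arrays, by 1.36 and 0.92. The change was 1.06 ± 0.30 (95% interval 0.35 to 1.77) and was not called (adjusted p = 0.0515, and 0.198 with the probe-number trend removed). NDI1, the internal enzyme that oxidises NADH of the matrix, read −2.64 in 6.5% culture 1 but 0.88 and 0.81 in 6.5% cultures 2 and 3, against −0.34, 0.27 and 1.01 in the 0% cultures. Only the swapped 6.5% array was low, so that the difference was −2.30 in one orientation and 0.20 in the other, and the change of −0.63 ± 0.53 was not called (adjusted p = 0.432).

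The lactate dehydrogenases pass electrons to cytochrome c in the intermembrane space. CYB2, which oxidises L-lactate, read 1.33, 2.45 and 2.22 in 6.5% cultures 1, 2 and 3, against 0.09, 0.99 and 0.04 in 0% cultures 1, 2 and 3. All 6.5% arrays lay above all 0% arrays, and CYB2 rose by 1.63 ± 0.33 (3.09-fold, 95% interval 0.83 to 2.42, adjusted p = 0.0223), with 1.24 within the swapped and 1.82 within the other arrays. With the probe-number trend removed it was at 1.90 (adjusted p = 0.0159). The call was lost without 6.5% culture 2 (1.50, adjusted p = 0.111) or 6.5% culture 3 (1.64, adjusted p = 0.0976). It was also lost when the arrays were scaled to 1 common spread (1.40, adjusted p = 0.0767) or quantile normalized (1.41, adjusted p = 0.0652). DLD1, which oxidises D-lactate, was at 0.01 ± 0.28 (95% interval −0.64 to 0.67). Its arrays split by culture number and not by ethanol: culture 1 read 1.24 with ethanol and 1.64 without, whereas cultures 2 and 3 read −0.52 and −0.59 with ethanol and −0.99 and −0.56 without. Only culture 1 was dye-swapped, so culture and dye orientation cannot be told apart in this.

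In complex III, the ubiquinol-cytochrome c reductase, no subunit passed the test (0 of 9, against 18.1% of all features). Among the 9, 5 had an unadjusted p under 0.05 in limma, and the median change was 0.34 (0.07 with the probe-number trend removed). The share of all features at an unadjusted p under 0.05 was not taken. The small accessory subunits lay above 0 and the larger subunits, apart from COR1, below it. QCR6, QCR7, QCR8, QCR9 and QCR10, small subunits around the core, ranged from 0.34 (QCR6) to 1.00 (QCR10). QCR10 read 0.89, 0.55 and 1.30 in 6.5% cultures 1, 2 and 3 and −0.41, 0.12 and 0.05 in 0% cultures 1, 2 and 3, and its change was 1.00 ± 0.30 (95% interval 0.29 to 1.70, adjusted p = 0.0616). The groups did not overlap for QCR7, QCR8, QCR9 and QCR10, all higher in ethanol (44.4% of complex III, against 11.3% of all features). Nor did they for CYT1, which was lower (11.1%, against 14.0%).

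Of the 4 larger subunits, QCR2, a core protein, had the lowest change at −0.75 ± 0.25 (adjusted p = 0.0824). It read −1.22, 0.46 and 0.29 in 6.5% cultures 1, 2 and 3, against −0.20, 0.89 and 1.09 in 0% cultures 1, 2 and 3, so the groups overlapped while each orientation had ethanol lower. CYT1, the heme-bearing cytochrome c1, was at −0.63 ± 0.24 (adjusted p = 0.115). RIP1, the Rieske iron-sulfur protein, and COR1, the other core protein, were at −0.12 ± 0.30 and 0.10 ± 0.25. With the probe-number trend removed the 4 lay between −0.40 and −0.24 and the small subunits between 0.07 and 1.03. This split of complex III was made after its values were seen.

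The cytochromes c carry electrons from complex III to complex IV, and yeast has an aerobic form, iso-1 from CYC1, and iso-2 from CYC7, known for expression at low oxygen and in stress. CYC7 read 2.31, 2.80 and 3.31 in 6.5% cultures 1, 2 and 3, against 0.29, −0.47 and −0.48 in 0% cultures 1, 2 and 3. Every 6.5% array lay over 2 log2 units above the pool and above every 0% array. CYC7 rose by 3.03 ± 0.37 (8.15-fold, 95% interval 2.14 to 3.92, adjusted p = 0.00783), the highest change of the 44 members and the 14th highest of all features, with 2.02 within the swapped and 3.53 within the other arrays. The call was lost without 6.5% culture 2 (adjusted p = 0.0594) or 6.5% culture 3 (adjusted p = 0.0526), at changes of 3.03 and 2.74.

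CYC1 read −0.01, 0.30 and 0.68 in 6.5% cultures 1, 2 and 3 and −0.33, 0.28 and 0.03 in 0% cultures 1, 2 and 3. The groups overlapped and the change of 0.33 ± 0.25 was not called (95% interval −0.27 to 0.93, adjusted p = 0.390). The difference of the 2 log2 ratios within an array, CYC1 minus CYC7, was −2.32, −2.50 and −2.62 with ethanol and −0.62, 0.75 and 0.51 without. The pair thus shifted by −2.70 towards CYC7, with no overlap between groups (exact permutation test over the 6 arrays, two-sided p = 0.1, the smallest p that 3 against 3 arrays allow). For each pair this test takes all 6 arrays as exchangeable and leaves dye orientation and culture number out of account. The shift was −1.70 within the swapped and −3.19 within the other arrays.

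**Figure D2:**
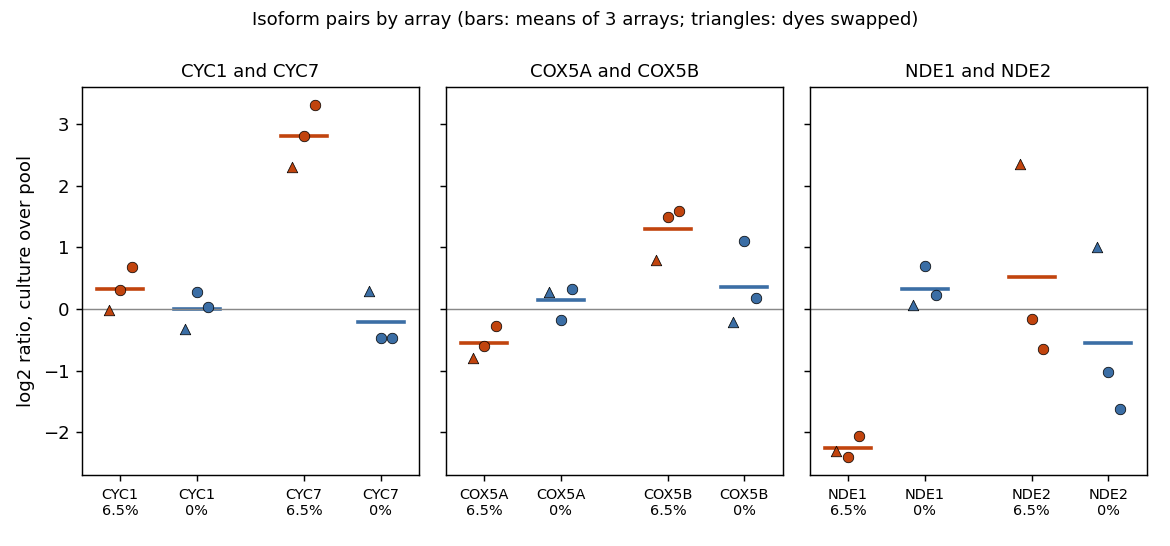
Log2 ratio of culture over pool (y axis) on each array for the isoform pairs CYC1 and CYC7, COX5A and COX5B, and NDE1 and NDE2, with 6.5% ethanol (orange) left of 0% ethanol (blue), bars for means of 3 arrays and triangles for the dye-swapped culture 1. CYC7 averaged 2.81 with ethanol and −0.22 without, and NDE1 averaged −2.26 with ethanol and 0.33 without.

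In complex IV, cytochrome c oxidase, 2 of the 9 nuclear-encoded subunits rose (22.2%, against 7.69% of all features). None fell, against 10.4% of all features, and the median change was 0.63. COX13, a regulatory subunit at the edge of the enzyme, read 0.92, 1.66 and 1.86 in 6.5% cultures 1, 2 and 3, against −0.14, 0.14 and 0.02 in 0% cultures 1, 2 and 3. The 0% arrays lay near the pool and all 6.5% arrays well above it. COX13 rose by 1.48 ± 0.26 (2.78-fold, 95% interval 0.85 to 2.10, adjusted p = 0.0158), with 1.06 within the swapped and 1.68 within the other arrays. The call was lost without 0% culture 2 (1.45, adjusted p = 0.0501), 6.5% culture 2 (1.48, adjusted p = 0.0899) or 6.5% culture 3 (1.36, adjusted p = 0.0923).

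COX9, a small membrane subunit, read 0.82, 0.09 and 0.60 in 6.5% cultures 1, 2 and 3 and −0.24, −0.59 and −0.62 in 0% cultures 1, 2 and 3, without overlap. It rose by 0.99 ± 0.26 (1.98-fold, 95% interval 0.37 to 1.60, adjusted p = 0.0420), with 1.07 within the swapped and 0.95 within the other arrays, but this call was at the threshold. Each of the 6 fits with an array left out ended it (0.86 to 1.14, adjusted p from 0.0795 to 0.192), as did the replicate block (adjusted p = 0.0816) and removal of the probe-number trend (0.55, adjusted p = 0.203).

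COX5A and COX5B code for alternative forms of 1 subunit, of which COX5A is used in air and COX5B is known from low oxygen. COX5B read 0.80, 1.49 and 1.59 in 6.5% cultures 1, 2 and 3, against −0.21, 1.11 and 0.18 in 0% cultures 1, 2 and 3, a change of 0.94 ± 0.31 that was not called (adjusted p = 0.0823). COX5A read −0.79, −0.60 and −0.27 with ethanol and 0.28, −0.18 and 0.33 without, a change of −0.69 ± 0.29 that was not called either (adjusted p = 0.136). The groups did not overlap for COX5A. COX5A minus COX5B within an array was −1.59, −2.09 and −1.85 with ethanol and 0.49, −1.29 and 0.15 without, a shift of −1.63 towards COX5B (exact permutation test, two-sided p = 0.1, the smallest possible, and p = 0.2 with the probe-number trend removed). The shift was −2.08 within the swapped and −1.40 within the other arrays.

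The third pair, NDE1 minus NDE2, was −4.68, −2.25 and −1.41 in 6.5% cultures 1, 2 and 3 and −0.94, 1.72 and 1.85 in 0% cultures 1, 2 and 3. It shifted by −3.65 towards NDE2 (exact permutation test, two-sided p = 0.1, the smallest possible), with −3.74 within the swapped and −3.61 within the other arrays. With 1 array left out it lay between −4.56 and −2.70. No p-value was adjusted over the 3 pairs, since the design cannot go below 0.1 for any of them.

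Among the other subunits of complex IV, COX4, a subunit needed for assembly of the enzyme, had the lowest change. It read −0.53, −0.17 and −0.26 in 6.5% cultures 1, 2 and 3, against 0.16, 0.66 and 0.57 in 0% cultures 1, 2 and 3. The groups did not overlap, and the change was −0.78 ± 0.24 (95% interval −1.34 to −0.22, adjusted p = 0.0624). COX4 and COX13 lie near each other in probe order (probes 2159 and 2163), and with the trend along that order removed they were at −0.84 and 1.42. COX12 and COX7 were at 0.63 ± 0.27 and 0.45 ± 0.31. COX6 and COX8 spread widely within both groups. COX6 read −0.54, −0.55 and 1.77 with ethanol and −1.17, 0.32 and −0.41 without. COX8 read 0.92, 0.46 and −1.95 with ethanol and −2.15, 0.26 and 0.98 without. Their changes of 0.65 ± 0.58 and 0.11 ± 1.00 have intervals of −0.74 to 2.04 and −2.26 to 2.49.

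**Figure D3:**
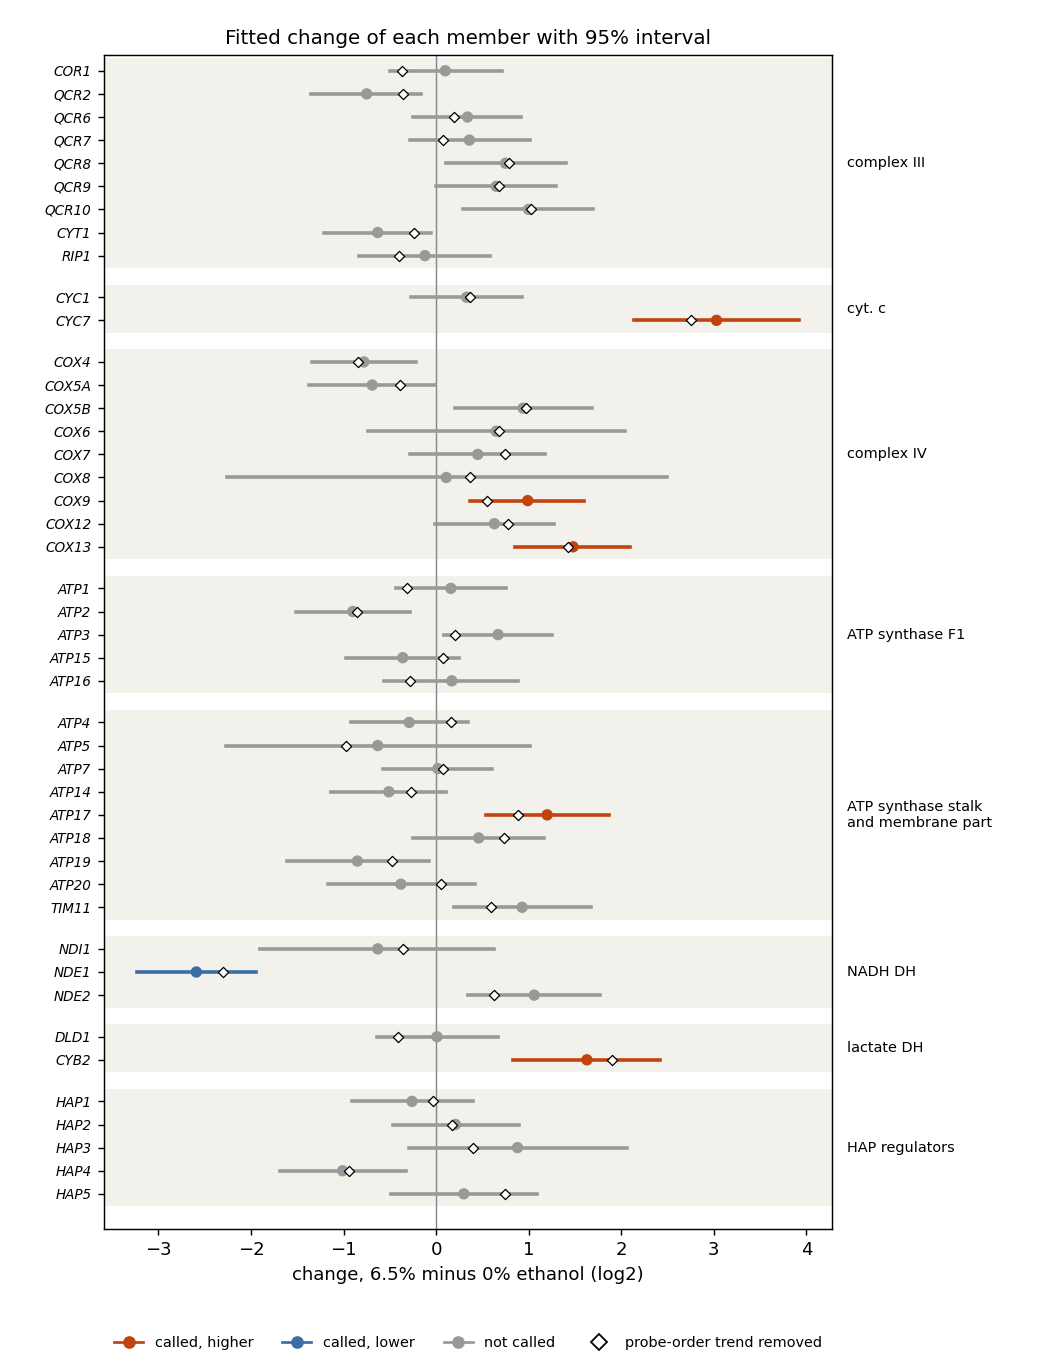
Fitted change, 6.5% minus 0% ethanol on the log2 scale (x axis), of the 44 members by role with 95% intervals, coloured where called, and the change with the probe-number trend removed as open diamonds. CYC7 at 3.03 and NDE1 at −2.59 stand out, and the diamonds of COX9 (0.55) and ATP17 (0.88) lie below the filled points (0.99 and 1.20).

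ATP synthase has a catalytic F1 head and a membrane part with a peripheral stalk. Of its 14 nuclear-encoded members 1 rose (7.14%, against 7.69% of all features) and none fell (against 10.4%). The median change was −0.14, with values from −0.90 to 1.20. In the F1 head ATP2, the catalytic beta subunit, had the lowest change. It read −0.96, −0.13 and 0.05 in 6.5% cultures 1, 2 and 3, against −0.38, 1.16 and 0.87 in 0% cultures 1, 2 and 3. Each orientation had ethanol lower (−0.59 and −1.06), and the change of −0.90 ± 0.26 was just outside the threshold (95% interval −1.51 to −0.28, adjusted p = 0.0558). ATP1, the alpha subunit that alternates with beta in the head, was at 0.16 ± 0.25 (95% interval −0.43 to 0.76). ATP3, the gamma subunit of the central stalk, had the highest change of the head and read 0.38, −0.29 and −0.63 in 6.5% cultures 1, 2 and 3, against −0.20, −1.21 and −1.14 in 0% cultures 1, 2 and 3. The groups overlapped, and its change was 0.67 ± 0.25 (adjusted p = 0.103), or 0.20 with the probe-number trend removed. ATP15 and ATP16, the epsilon and delta subunits of that stalk, were at −0.36 ± 0.26 and 0.17 ± 0.31.

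ATP17, subunit f of the membrane part, was the ATP synthase gene that passed the test. It read 0.63, 0.68 and 1.07 in 6.5% cultures 1, 2 and 3, against −0.38, −0.70 and −0.15 in 0% cultures 1, 2 and 3, with the groups well apart. It rose by 1.20 ± 0.28 (2.30-fold, 95% interval 0.54 to 1.87, adjusted p = 0.0311), with 1.00 within the swapped and 1.30 within the other arrays. The call was lost with the replicate block (adjusted p = 0.0529) and with the probe-number trend removed (0.88, adjusted p = 0.0874). It was also lost without either of 0% cultures 2 and 3 or 6.5% cultures 2 and 3 (1.02 to 1.33, adjusted p from 0.0505 to 0.146).

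TIM11, subunit e, which holds 2 ATP synthases together as a dimer, read −0.08, 0.75 and 0.61 with ethanol and −0.54, −0.85 and −0.11 without, a change of 0.93 ± 0.31 (adjusted p = 0.0845). ATP20, subunit g, which works with subunit e in the dimer, was at −0.38 ± 0.33 (adjusted p = 0.458), and with the probe-number trend removed subunits e and g were at 0.59 and 0.05. ATP19, subunit k, had the lowest change of the stalk and membrane part at −0.85 ± 0.32 (adjusted p = 0.114). It read −1.55, −0.43 and 0.18 with ethanol and −0.28, 0.82 and 0.20 without. ATP4, ATP7 and ATP14, of the peripheral stalk, were at −0.29, 0.02 and −0.51 and ATP18, subunit i/j, at 0.46. ATP5, the stalk subunit that binds the F1 head, spread widely, at −0.63 ± 0.69, with 0.89 within the swapped and −1.39 within the other arrays.

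**Figure D4:**
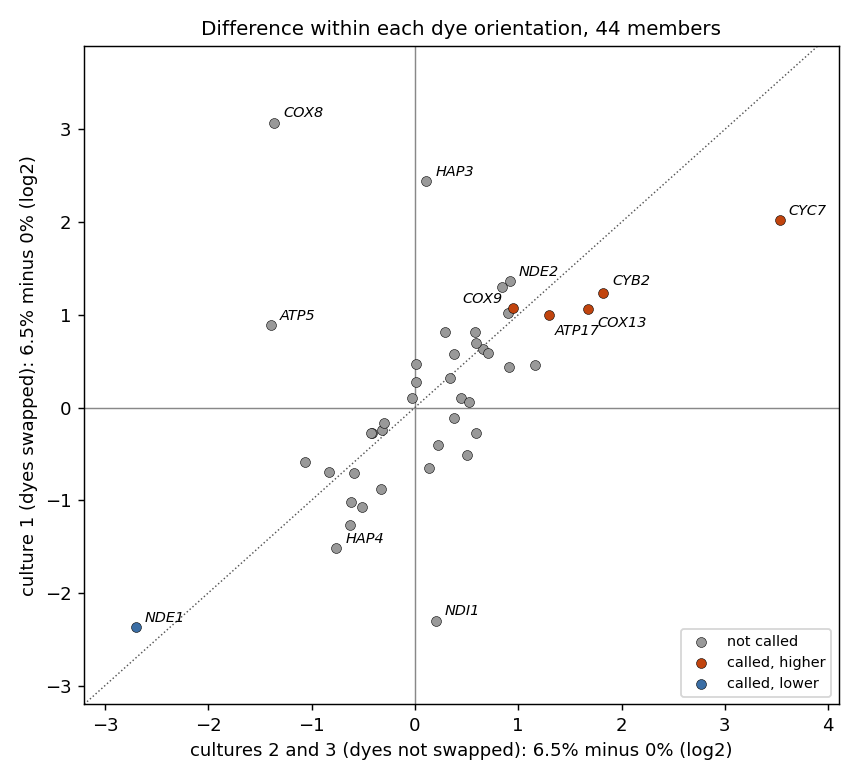
Difference of 6.5% minus 0% ethanol (log2) within the dye-swapped arrays of culture 1 (y axis) against the difference within the arrays of cultures 2 and 3 (x axis) for the 44 members, with a dotted line of equality. CYC7 (2.02 and 3.53) and NDE1 (−2.37 and −2.70) lie far out in both, while NDI1 (−2.30 and 0.20) and HAP3 (2.44 and 0.11) lie far from 0 on the swapped arrays alone and COX8 (3.07 and −1.36) has opposite signs.

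No HAP regulator passed the test in limma (0 of 5, against 18.1% of all features). Only 1 of the 5, HAP4, had an unadjusted p under 0.05. HAP4, the limiting activation subunit of the HAP2/3/4/5 complex, read −1.39, −0.29 and −0.57 in 6.5% cultures 1, 2 and 3, against 0.14, 0.17 and 0.49 in 0% cultures 1, 2 and 3. The groups did not overlap, and the change of −1.01 ± 0.29 (2.02-fold lower in ethanol, 95% interval −1.69 to −0.33) lay just outside the threshold (adjusted p = 0.0523, and 0.0631 with the probe-number trend removed). HAP3, a DNA-binding subunit, read 2.44, −0.68 and −0.64 in 6.5% cultures 1, 2 and 3, against 0.00, −1.02 and −0.50 in 0% cultures 1, 2 and 3. The swapped 6.5% array alone was high, the groups overlapped, and the change of 0.88 ± 0.49 was not called (adjusted p = 0.247). HAP2 and HAP5, the other DNA-binding subunits, were at 0.21 ± 0.29 and 0.30 ± 0.33. HAP1, the heme-responsive activator, was at −0.26 ± 0.28 (95% interval −0.91 to 0.40).

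Shorter genes of the complexes tended to have the higher change. Over the 32 subunits of complexes III and IV and ATP synthase the change correlated with the log2 of annotated length (RefSeq assembly R64) at r = −0.35 and rho = −0.36, against −0.03 and −0.02 over all 5650 named genes. These are descriptions across genes measured on the same arrays. Of the lengths 31 of 32 were multiples of 3, which does not show them to be coding lengths, since they can include introns. The 16 genes of at most 429 bp, the median length, had a median change of 0.54, with 12 above 0 and 3 called higher, and the 16 longer genes had −0.05, with 8 above 0 and none called. Among all named genes the 392 of that size had a median of 0.23, with 61.2% above 0 (against 75% of the short subunits). Of these 392 genes 51 were called higher and 31 lower. The longer 5258 genes had a median of 0.03, with 51.3% above 0 (against 50% of the longer subunits). Of them 396 were called higher and 587 lower. The shorter genes thus had the higher median there too. The difference in calls between the short and the longer subunits was not tested. In complex III alone r was −0.83 (n = 9), in complex IV −0.23 (n = 9) and in ATP synthase −0.14 (n = 14). With the probe-number trend removed r over the 32 was −0.53, and it was −0.30 within the swapped and −0.28 within the other arrays. Length was looked at after the values were seen, and its part in these changes was not tested.

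**Figure D5:**
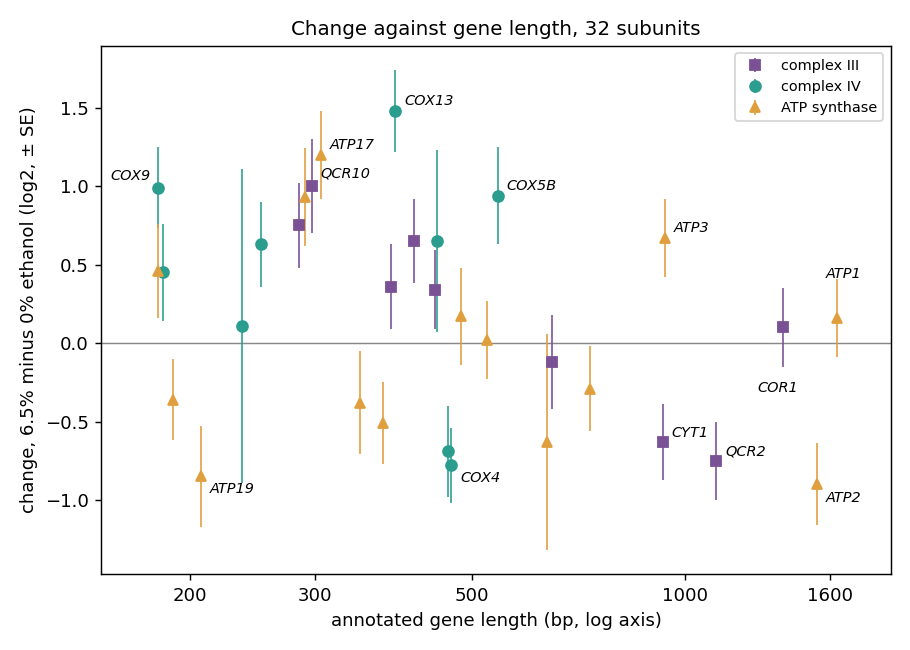
Change, 6.5% minus 0% ethanol (log2, with SE; y axis), against annotated gene length in bp (log x axis) for the 32 subunits of complex III (squares), complex IV (circles) and ATP synthase (triangles). The short COX13, ATP17, QCR10 and COX9 lie at 0.99 to 1.48 and the longer QCR2, CYT1 and ATP2 at −0.90 to −0.63, while ATP19, at −0.85, is short.

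Other genes of the pathway, taken from lists of 96 genes of which 94 were measured, gave 8 that rose and 4 that fell, or 12.8%, against 18.1% of all features, with a median change of 0.21. The 8 were 8.51%, against 7.69% of all features called higher, and the 4 were 4.26%, against 10.4% called lower. In complex II, the succinate dehydrogenase, SDH2, the iron-sulfur subunit, fell by 1.06 ± 0.26 (adjusted p = 0.0357, but 0.0757 with the replicate block and 0.0528 with the probe-number trend removed). It read −1.17, −0.43 and −0.49 with ethanol and 0.32, 0.50 and 0.29 without. Its call did not hold in any fit with an array left out. SDH1, SDH3 and SDH4, the flavoprotein and the membrane anchors, were at −0.78, −0.81 and 0.70 without a call.

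Among 29 measured genes of complex IV assembly and expression 3 rose (10.3%, against 7.69% of all features) and 2 fell (6.9%, against 10.4%). RCF2, which belongs to a family of factors bound to complexes III and IV in supercomplexes, read −2.15, −1.33 and −1.80 in 6.5% cultures 1, 2 and 3, against 0.37, 0.88 and 0.56 in 0% cultures 1, 2 and 3. The groups lay far apart, and RCF2 fell by 2.36 ± 0.27 (a 5.13-fold decrease, 95% interval −2.99 to −1.73, adjusted p = 0.00647). PET122, a translational activator of the COX3 mRNA in mitochondria, read 1.82, 2.06 and 1.85 with ethanol and −0.16, 0.68 and 0.01 without. It rose by 1.73 ± 0.29 (3.32-fold, adjusted p = 0.0134). PET117, an assembly factor, rose by 1.56 ± 0.32 (adjusted p = 0.0223, and 0.0501 with the replicate block). COX20, which chaperones the COX2 protein, rose by 1.08 ± 0.25 (adjusted p = 0.0314, but 0.137 with the probe-number trend removed). COX11, which delivers copper to the enzyme, fell by 1.14 ± 0.29 (adjusted p = 0.0396, but 0.164 with that trend removed). Both calls were also lost with the replicate block, after scaling and after quantile normalization, and both genes were named after their values were seen. None of the 12 genes for complex III assembly and expression was called by limma (against 18.1% of all features), and 1 had an unadjusted p under 0.05.

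Of 14 genes for assembly and inhibition of ATP synthase 2 rose (14.3%, against 7.69% of all features) and none fell (against 10.4%). STF1, an inhibitor that blocks ATP hydrolysis by the F1 head, read 1.43, 1.95 and 2.25 in 6.5% cultures 1, 2 and 3, against −0.31, −0.60 and 0.48 in 0% cultures 1, 2 and 3, and rose by 2.02 ± 0.35 (4.05-fold, 95% interval 1.19 to 2.84, adjusted p = 0.0146). STF2, linked to the same inhibition and to survival of drying, read 1.14, 1.82 and 2.00 with ethanol and −0.45, 0.23 and 0.00 without. It rose by 1.73 ± 0.24 (3.31-fold, adjusted p = 0.00916). All 6.5% arrays lay above all 0% arrays for both. INH1, the main inhibitor of ATP hydrolysis, was at 0.68 and was not called.

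Of 10 genes of ubiquinone synthesis COQ6, a hydroxylase of the ring, rose by 1.34 ± 0.24 (adjusted p = 0.0156). COQ6 was 10% of that list, against 7.69% of all features called higher. Of 8 genes of heme synthesis HEM3, porphobilinogen deaminase, rose by 1.30 ± 0.28 (adjusted p = 0.0263, but 0.0575 with the replicate block and 0.122 with the probe-number trend removed). HEM3 was 12.5% of that list, against 7.69% of all features called higher. Of 4 carriers MIR1, which brings phosphate into mitochondria, read −0.76, −0.82 and −1.19 with ethanol and 0.51, 0.18 and 0.39 without, and fell by 1.28 ± 0.25 (2.43-fold, adjusted p = 0.0194). PET9, the main ADP/ATP carrier, was at −0.58. MIR1 was 25% of the carriers, against 10.4% of all features called lower. With the probe-number trend removed 2 of the 4 carriers fell, against 7.27% of all features. None of the 6 hypoxic genes and repressors was called by limma (against 18.1% of all features), with 3 at an unadjusted p under 0.05. With the probe-number trend removed 1 of the 6 rose, against 5.91% of all features. ROX1, the repressor of genes used at low oxygen, was at −1.01 and ANB1, one of its targets, at 0.70. Of the 6 genes 2 lay above 0 and 4 below, with a median change of −0.26 and a highest of 1.00. ROX1 and ANB1 were named after their values were seen.

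The 7 subunits encoded in mitochondrial DNA were all above 0, from 0.60 (ATP8) to 1.61 (OLI1), with a median of 1.19. Of all features 52.0% lay above 0, and all 12 genes for complex III assembly and expression did, with a median of 0.34. The groups did not overlap for 2 of the 7 (28.6%, against 11.3% of all features higher without overlap). OLI1, the subunit of the rotor ring of ATP synthase, read 1.31, 0.12 and 1.16 in 6.5% cultures 1, 2 and 3, against −1.05, −0.87 and −0.31 in 0% cultures 1, 2 and 3, without overlap. It rose by 1.61 ± 0.41 (3.05-fold, adjusted p = 0.0378), a call that held in 1 of the 6 fits with an array left out. The other 6 were not called, with COX3 at 1.42 ± 0.55 and COB at 1.34 ± 0.57. COB ranged from −0.18 to 1.59 on the 6.5% arrays and from −1.59 to −0.15 on the 0% arrays.

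The calls depended on which array was left out. Without either array of culture 1, 5 of the 6 called members and 10 of the 12 called pathway genes kept their calls, with 1253 features in all. Without 6.5% culture 2 none of the 6 called members and none of the 12 called pathway genes was called, and over all 6345 features 2 were called. Without 6.5% culture 3 only NDE1 of the 18 genes was called, and 51 features in all. Without 0% culture 2, 3 of the members and 6 of the pathway genes kept their calls, with 485 features in all, and without 0% culture 3, 4 members and 6 pathway genes did, with 754 features in all. Without the dye term CYC7 and NDE1 were the members still called, with 78 features in all.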

How the data were processed

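The values were the log2 ratios that the authors deposited for each probe of 6 two-colour arrays (red and green AlexaFluor dyes, per the labels), limited at 6.64 (a ratio of 100). Array medians lay between 0.008 and 0.037, so the ratios were centred. The sources used here give neither their normalization, the direction of the ratio nor the signal of each dye, so background, saturation and detection could not be assessed, and the number of arrays limits the precision.

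Ratios of the dye-swapped arrays (culture 1 of each group, per the labels) were multiplied by −1. Probes were named by the platform annotation: 5673 of 6368 had 1 gene, none had several and 695 had none. Probes of 1 gene were averaged, which gave 6345 features. No sequences were used. RefSeq assembly R64 served only for names and gene lengths.

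limma 3.58.1 (R 4.3.3) was fitted to all features with terms for ethanol and dye orientation (3 residual and 3.83 prior degrees of freedom), after a test on simulated data. P-values were adjusted by Benjamini-Hochberg over all features. Isoform pairs were tested with an exact permutation test over arrays (20 arrangements), without regard to dye orientation or culture number. Other settings tried were no dye term, a lowess trend along the probe number removed (fraction 0.2), scaling, quantile normalization, values at the limit set to missing, the unswapped arrays alone, a replicate block and each array left out.

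The replicate block took culture numbers as pairing the arrays, because deviations from the group means correlated within each number (0.70, 0.48 and 0.43 across features). The main fit and the permutation tests did not use this pairing. Cultures 2 and 3, which share a dye orientation, correlated as much across numbers (0.42 and 0.51), so their numbers showed no pairing of their own. For culture 1 the pairing coincides with the dye swap, so pairing and dye orientation cannot be told apart there. The cultures were separate per the labels.

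The members and lists were chosen with earlier results of these data known. Every member is accounted for. Full values are given for called members, for the highest and lowest of each role group and for isoform pairs. From the other lists the text names up to 3 called genes of largest absolute change, and any further gene there was named after its values were seen.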

Additional observations from a re-analysis of the deposited data

How the results depend on the processing

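Against 5 members called higher as reported, the count was 1 without the dye term, 3 with the probe-number trend removed, 2 after scaling the arrays to equal spread, 3 after quantile normalization and 3 with the replicate block in place of the dye term. With each array left out in turn it lay between 0 and 4, with 0 without 6.5% culture 2. The count called lower stayed at 1 in these settings and lay between 0 and 1 with an array left out. Leaving out either array of culture 1 gave the same fit, because the dye term then absorbs the other. The median change of the members stayed between 0.13 and 0.25. The replicate block ended the calls of COX9 and ATP17 among members and those of SDH2, PET117, HEM3, COX11 and COX20 among pathway genes, and no other call among these 18 genes. DLD1, at 0.01, was −0.41 with the trend removed, −0.73 after scaling, −0.24 after quantile normalization and between −0.17 and 0.22 with an array left out. The shifts of the 3 isoform pairs kept their sign in every setting run. Over all features 488 were called higher and 662 lower as reported, 104 and 203 after scaling, 166 and 318 after quantile normalization, and 250 and 357 with the block. Probes of 1 gene kept apart were not run, since each member has 1 probe, nor were promoter motifs. Without signal values, dim probes could not be told from bright ones.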
